A study of Macaca mulatta with 24 samples.

Results

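The genes that carry iron into the jejunum, hold it there and pass it on to the blood were followed after total-body irradiation (TBI) in rhesus macaques. The members were chosen by name. They were all probes that the authors' normalized table gives 1 of 8 gene symbols, CYBRD1, SLC11A2, SLC40A1, HEPH, TFRC, FTH1, FTL and HMOX1. These 8 genes had 13 probes, out of 43603 probes and 16094 gene symbols on the array. SLC11A2 and FTH1 had 3 probes each, CYBRD1 had 2 and the other genes had 1. The list was drawn up with earlier results of these arrays in view, among them a rise of CYBRD1 between day 4 and day 12 after 6.7 Gy, so that difference is given below as a description and supports nothing. Comparisons of CYBRD1 with control on those days use the same irradiated arrays and are limited in the same way.

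Dietary ferric iron is reduced at the brush border of the enterocyte by the ferrireductase CYBRD1 and enters the cell through the divalent metal transporter SLC11A2. Inside the cell it is held in ferritin, a shell of heavy (FTH1) and light (FTL) chains, or leaves through the exporter SLC40A1 (ferroportin), with the oxidase HEPH (hephaestin) returning it to the ferric form that transferrin carries. TFRC, the transferrin receptor, takes iron up from the blood side, above all in dividing cells, and HMOX1 (heme oxygenase) opens the heme ring and so frees iron, both from food and in macrophages that clear old red cells. Iron absorption is known mainly from the duodenum and the upper jejunum.

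All animals were male and adult but young. Irradiation was given once, evenly over the whole body, as gamma rays of cobalt-60, and the controls went through a sham procedure. There were 4 unirradiated controls. Each dose, 6.7 Gy or 7.4 Gy, had 4 animals on day 4, 4 on day 7 and 2 on day 12. RNA came from whole gut tissue of a piece of about 3 cm, with no pooling, and each of the 24 arrays held the jejunum of 1 animal. The labels give the controls day 4, and the same 4 control arrays served every comparison with control, so those comparisons are not independent of each other and those of days 7 and 12 have no control of their own day. In tissue of this kind fewer cells of a type and less RNA per cell cannot be told apart.

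A level below is the log2 signal of a probe minus the 75th percentile of its array, so a level of 0 is the array's 75th percentile. With so few arrays a group, that number sets the precision. Probes well above background made up 39.4% to 87.7% of an array, with the lowest shares on the 4 arrays of slide 5. On day 12 the 6.7 Gy arrays were on slides 3 and 4, scanned on the same day as all controls. The 7.4 Gy arrays were on slides 5 and 6, scanned on another day. Differences between the doses, or of 7.4 Gy from control, on day 12 cannot be told apart from slide and scan day. Of the 13 iron probes, all passed the filter on dim probes, as did 28171 probes in all, and on all 24 arrays 12 of the 13 stood well above background. The exception was 1 SLC11A2 probe, with 23 arrays. Calls required both an adjusted p under 0.05 in limma and a change of 2-fold or more. Where a gene had several probes, the one with the highest mean level stands for it.

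On day 4 after either dose, HMOX1 was the member called, and it was lower than in control. On days 7 and 12 no member was called against control. Between day 4 and day 12 SLC11A2 was called lower after 7.4 Gy. SLC40A1, HEPH, TFRC, FTH1 and FTL were called in none of the 13 comparisons between groups, and no member was called between the doses on any day.

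The call on day 4 after 6.7 Gy was 1 of 8 genes, against 1.98% of all probes called and 0.731% called lower. After 7.4 Gy it was again 1 of 8 genes, against 2.6% called and 0.887% called lower. On day 7, 0 of 8 genes were called after either dose, against 0.0639% and 0.288% of all probes, and on day 12 0 of 8, against 0.0071% and 0.00355%. At an unadjusted p under 0.05 in limma, HMOX1 and FTL passed on day 7 at each dose, 2 of 8 genes against 10.5% and 16.4% of all probes. On day 12 after 6.7 Gy the count was 1 of 8 against 7% of all probes, but this was CYBRD1 on arrays of the difference known beforehand, so nothing is read from it. After 7.4 Gy 0 of 8 passed, against 8.42%. Between day 7 and day 4, 0 of 8 genes were called, against 1.55% of all probes after 6.7 Gy and 1.64% after 7.4 Gy. The median change of the 8 genes on day 4 was -0.15 log2 after 6.7 Gy and -0.11 after 7.4 Gy, beside -0.06 and -0.08 over all probes tested. On day 7 the medians were -0.12 and -0.28 log2, beside -0.00 and -0.03, and on day 12 -0.19 and -0.28, beside 0.03 and -0.02.

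**Figure D1:**
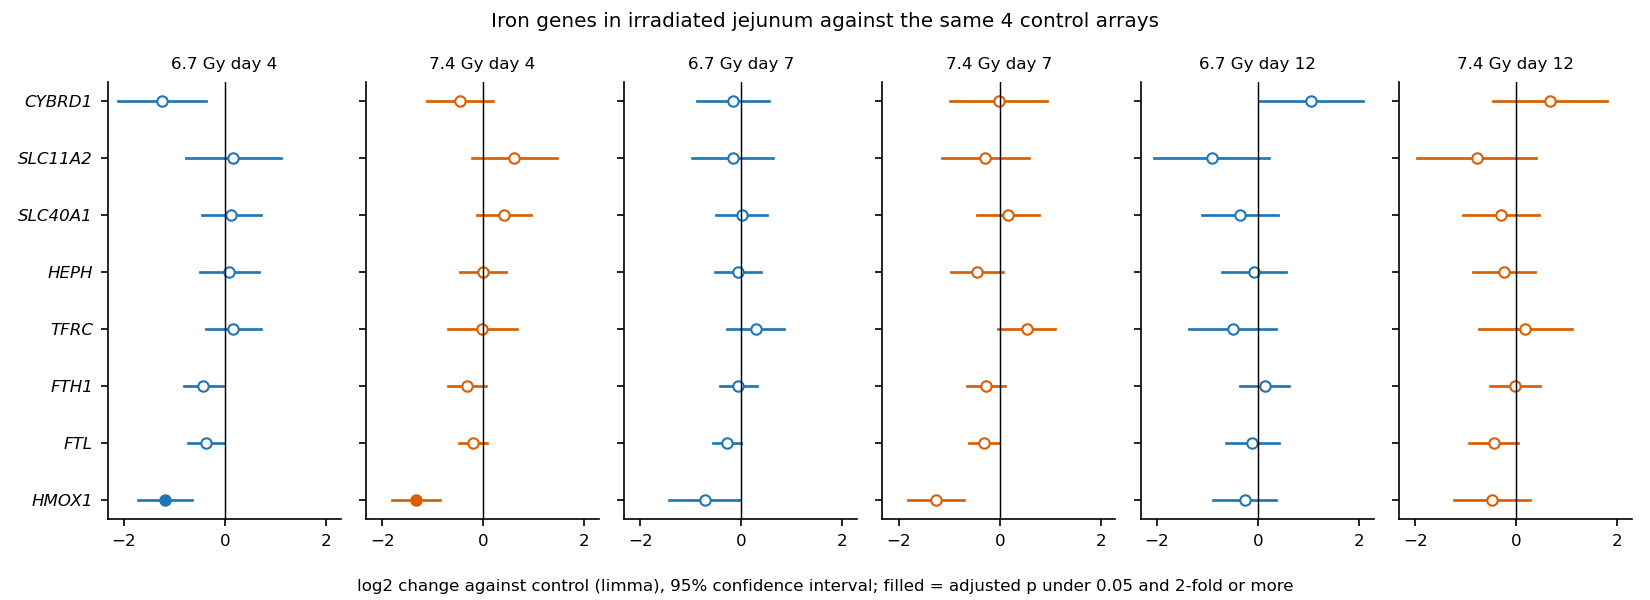
Log2 change of each iron gene against the same 4 control arrays (x axis) in the 6 irradiated groups (panels), with the 95% confidence interval from limma; filled points passed an adjusted p under 0.05 and 2-fold. HMOX1 lies at -1.19 and -1.33 in the day 4 panels and carries the only filled points, while the intervals of SLC40A1, HEPH and TFRC cross 0 in every panel.

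HMOX1 (probe A_01_P010451) had levels of 4.73, 3.95, 4.63 and 4.77 in the controls. On day 4 the levels were 3.34, 3.71, 2.89 and 3.37 after 6.7 Gy. After 7.4 Gy they were 3.09, 3.51, 3.12 and 3.07. Every irradiated array of day 4 thus lay below the lowest control, which was replicate 2. The change in limma was -1.19 log2 ± 0.24 (SE), a 2.29-fold lower level, with an adjusted p of 0.0321 after 6.7 Gy. After 7.4 Gy it was -1.33 ± 0.21 log2, a 2.51-fold lower level, with an adjusted p of 0.0156 in limma. Of all probes, 7.66% and 10.1% had day 4 arrays that all lay below the controls.

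On day 7 after 7.4 Gy the HMOX1 levels were 3.02, 3.23, 3.75 and 3.02, again all below the controls, as was so for 5.38% of all probes. The change was -1.26 ± 0.24 log2 with a limma adjusted p of 0.0641, which missed the threshold in a comparison where few probes passed it. It was called when the spread was taken from all 24 arrays, at an adjusted p of 0.0189 in limma. On day 7 after 6.7 Gy the arrays spread from 3.13 to 4.57 and overlapped the controls, and the change was -0.73 ± 0.32 log2 with an adjusted p of 0.454. On day 12 the 6.7 Gy arrays had 4.24 and 4.29 and the 7.4 Gy arrays 4.40 and 3.67. These lay within the control range except for the lower array of 7.4 Gy. Against day 4, HMOX1 on day 12 differed by 0.93 ± 0.33 log2 after 6.7 Gy and 0.84 ± 0.33 after 7.4 Gy. The days did not overlap, as was so for 19.2% and 15.8% of all probes in this direction, and the limma adjusted p were 0.149 and 0.157, so neither difference was called.

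The call of HMOX1 after 6.7 Gy did not survive the loss of single arrays. Its adjusted p in limma ran from 0.0522 to 0.0855 without any 1 of control replicates 1, 3 and 4 or of the 4 irradiated arrays, with changes of -1.32 to -1.05 log2. All controls lay at position 1 of their slide, as did 2 of the 4 arrays of day 4 after 6.7 Gy and none after 7.4 Gy. Within position 1 the difference after 6.7 Gy was -0.999 log2 (2 arrays against 4). A block for position gave changes of -0.999 log2 (adjusted p of 0.161 in limma) and -0.94 log2 (0.542), so neither call held. On day 4 after 7.4 Gy position and group cannot be told apart against the controls alone. Nor can they on days 7 and 12, when no array lay at position 1. Within slides that held a control, HMOX1 on day 4 was lower by 1.84 and 0.58 log2 after 6.7 Gy. After 7.4 Gy the day 4 differences were -1.54 and -1.26 log2.

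**Figure D2:**
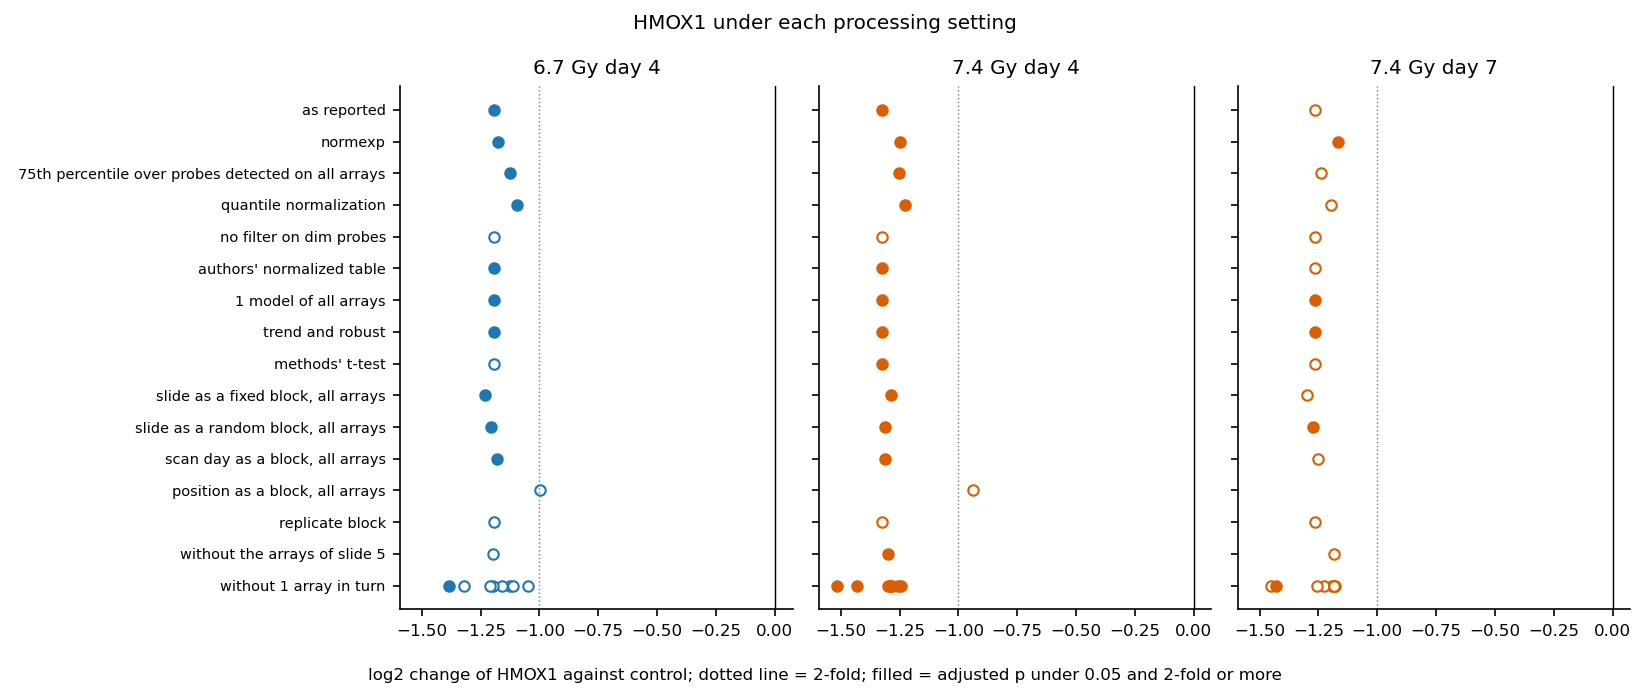
Log2 change of HMOX1 against control (x axis) under each processing setting (y axis) in 3 irradiated groups; filled points passed an adjusted p under 0.05 and 2-fold, and the dotted line marks 2-fold. The change stayed between -1.51 and -0.94 in all settings, but the call after 6.7 Gy on day 4 was lost in 12 of 22 of them.

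Markers of other cells and of gut position moved on the same days. On day 4 after 6.7 Gy 0.731% of all probes were called lower and 1.25% higher. After 7.4 Gy these shares were 0.887% and 1.71%. Of the 6 absorptive enterocyte markers tested, FABP1 and VIL1 were called lower on day 4 after 6.7 Gy and FABP1 after 7.4 Gy. The summed linear level of the 6 ran from 401 to 474 in the controls, from 262 to 316 on day 4 after 6.7 Gy and from 251 to 347 after 7.4 Gy. Of the 5 markers of the proximal small bowel, 3 and 4 were called lower on day 4, and their summed level was 243 to 645 in the controls against 28.2 to 67.8 and 15.0 to 60.5. S100G, the calcium-binding protein of the upper small bowel, fell by 3.33 and 3.76 log2. Of the 5 markers of the distal small bowel, 2 and 1 were called higher. The ileal bile acid binder FABP6 was among them after 6.7 Gy, with levels of -0.44 to 4.97 against -2.70 to -1.25 in the controls. Of the 4 macrophage markers, 0 and 1 were called higher on day 4, with a summed level of 49.9 to 90.5 and 71.1 to 84.5 against 45.0 to 54.2 in the controls. PDX1, the duodenal transcription factor, was low in the controls, at -2.95 to -1.84, but well above background on all 4. On day 7 the enterocyte markers summed to 204 to 422 after 6.7 Gy and, below all controls, to 214 to 337 after 7.4 Gy, with 0 of 6 called at either dose. The proximal markers, at 198 to 510 and 87.2 to 597, overlapped the controls on that day. The part of these shifts in the levels of HMOX1 and of FTL, described below, was not tested.

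CYBRD1, the ferrireductase, was at its lowest on day 4 after 6.7 Gy and at its highest on day 12. The probe A_01_P005800 had levels of 2.05, 3.30, 3.42 and 2.88 in the controls. After 6.7 Gy the arrays of day 4 stood at 2.45, 1.79, 0.85 and 1.60, and after 7.4 Gy at 2.30, 2.36, 2.72 and 2.45. Because control replicate 1 was low on this probe, both day 4 groups overlapped the controls. The change was -1.24 ± 0.39 log2 after 6.7 Gy (adjusted p of 0.112 in limma) and -0.45 ± 0.29 after 7.4 Gy (0.365), so CYBRD1 was not called. These 6.7 Gy arrays are the low side of the difference known when the list was made, so the values after 6.7 Gy are a description. The change after 6.7 Gy moved past the threshold with slide as a fixed or a random block (-1.44 and -1.29 log2, adjusted p of 0.0421 and 0.0409 in limma) or with scan day as a block (-1.52 log2, 0.0403). Position as a block left -0.79 log2, which was not called. After 7.4 Gy the sign turned under that block, to 0.44 log2.

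The second CYBRD1 probe, A_01_P1719626, placed control replicate 1 highest, at 2.89, beside 2.75, 2.74 and 2.77. On it the day 4 arrays of both doses lay below all controls, as was so for 7.66% and 10.1% of all probes. They ran from 1.19 to 2.28 after 6.7 Gy and from 1.85 to 2.43 after 7.4 Gy. The changes were -1.01 ± 0.24 and -0.62 ± 0.16 log2, with limma adjusted p of 0.0573 and 0.0619. The first was over 2-fold, but neither passed the threshold on the adjusted p. The probes therefore differed in whether day 4 separated from control, and that difference came with the array of control replicate 1.

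On day 7 most CYBRD1 levels lay within the control range. The 6.7 Gy arrays had 2.63, 3.00, 3.11 and 2.25, and the 7.4 Gy arrays 4.01, 2.33, 2.38 and 2.85. Replicate 1 of the latter was above every control and the other 3 were within the range. The changes against control were -0.17 and -0.02 log2, with 95% confidence intervals of -0.88 to 0.55 and -0.98 to 0.94.

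On day 12 CYBRD1 reached 3.52 and 4.42 after 6.7 Gy, and 3.00 and 4.15 on the arrays of 7.4 Gy. Both arrays of 6.7 Gy lay above all controls, like 10.1% of all probes, whereas those of 7.4 Gy overlapped them. The changes against control were 1.06 ± 0.43 and 0.66 ± 0.47 log2, with limma adjusted p of 0.698 and 0.714. Without 1 day 12 array or the other, the change was 0.60 or 1.51 log2 after 6.7 Gy and 0.09 or 1.23 after 7.4 Gy. Set against day 4 of the same dose, CYBRD1 was 2.30 log2 higher after 6.7 Gy on the first probe and 2.00 on the second, which is the difference known when the list was made. After 7.4 Gy, on other animals, it was 1.11 ± 0.48 log2 higher on the first probe and 1.01 ± 0.41 on the second, with no overlap between the days on either probe. The limma adjusted p there were 0.2 and 0.164, and CYBRD1 was not called. The value on the first probe was 1.69 log2 without replicate 1 of day 12 and 0.54 without replicate 2. Of all probes, 15.8% were higher without overlap in that comparison, which had 2 arrays against 4.

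The gut-position markers of day 12 were as follows. The summed level of the 5 distal markers was 82.8 to 92.9 after 6.7 Gy and 31.9 to 39.6 after 7.4 Gy, against 13.3 to 20.7 in the controls. That of the 5 proximal markers was 20.6 to 77.8 and 151 to 161, against 243 to 645. FABP6 was the one marker of these lists called against control on day 12, and only after 6.7 Gy. The absorptive enterocyte markers summed to 348 to 368 and 243 to 375, below the controls at both doses. The part of these markers' levels in those of CYBRD1 and SLC11A2 was not tested.

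**Figure D3:**
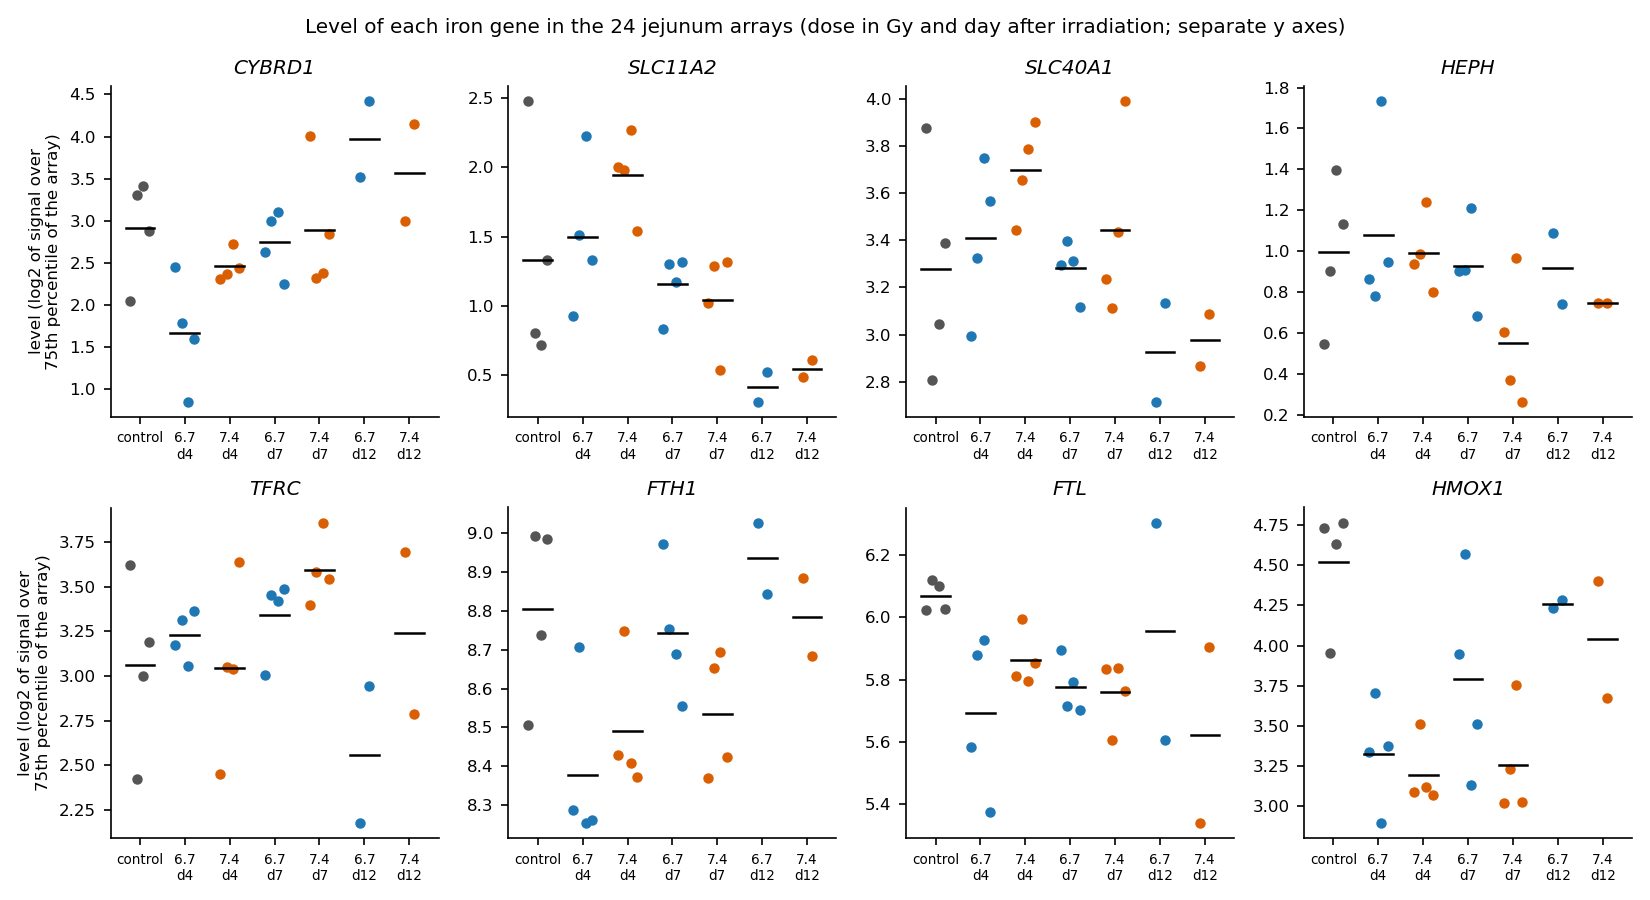
Levels of the 8 iron genes on the 24 arrays (points) by group (x axis, dose in Gy and day after irradiation), as log2 of the signal over the array's 75th percentile, with the group mean as a line; each panel has its own y axis. HMOX1 is below every control on day 4 at both doses, and CYBRD1 is low on day 4 after 6.7 Gy, where its lowest array is at 0.85, and high on day 12, where it reaches 4.42.

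SLC11A2, the metal transporter that takes reduced iron into the enterocyte, was lowest on day 12. On the probe A_01_P001632 the controls were at 2.48, 0.80, 0.72 and 1.33, a wide spread set by replicate 1. On day 4 the 6.7 Gy arrays had 0.93, 1.51, 2.23 and 1.33, and the 7.4 Gy arrays 2.01, 1.98, 2.27 and 1.54. Both groups overlapped the controls, with changes of 0.17 ± 0.41 and 0.62 ± 0.37 log2 (adjusted p of 0.846 and 0.342 in limma). They were 0.55 and 1.00 log2 without control replicate 1, and neither was called. On day 7 the levels of SLC11A2 ran from 0.83 to 1.32 and from 0.54 to 1.32, and on day 12 the 6.7 Gy arrays had 0.31 and 0.52 and the 7.4 Gy arrays 0.49 and 0.61. All 4 arrays of day 12 lay below the lowest control, but the changes of -0.92 ± 0.48 and -0.79 ± 0.49 log2 had limma adjusted p of 0.749 and 0.681. Without control replicate 1 they were -0.54 and -0.40 log2. Of all probes, 7.43% and 9.5% had day 12 arrays that all lay below the controls.

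Between day 4 and day 12 after 7.4 Gy, SLC11A2 was lower by 2.64-fold, a change of -1.40 ± 0.38 log2 with an adjusted p of 0.0465 in limma, and it was called. It was 1 of 8 genes called there, against 2.42% of all probes called and 1.6% called lower. All day 4 arrays of this dose lay at position 2 of their slide and both day 12 arrays at position 4. Day and position therefore cannot be told apart in this call. The call was close to the threshold and was lost in 13 of 19 other settings, among them without either array of day 12 (-1.34 and -1.46 log2) and without any of day 4 replicates 1, 2 and 3. After 6.7 Gy the change was -1.09 ± 0.38 log2, with no overlap between the days and a limma adjusted p of 0.148. There too the days shared no position. Of all probes, 12% were lower without overlap in that comparison and 12.7% in that of 7.4 Gy. The count of calls after 6.7 Gy was 1 of 8 genes, against 0.951% of all probes, but it was CYBRD1, whose difference was known when the list was made, so nothing is read from it. The other SLC11A2 probes were not called in any comparison. A_01_P1732531 differed by -1.17 ± 0.40 log2 at 7.4 Gy and -0.85 ± 0.40 at 6.7 Gy over the same days. A_01_P1681586, the one that was not well above background on 1 array, gave -0.84 ± 0.38 after 7.4 Gy but -0.01 ± 0.38 after 6.7 Gy, so the probes did not all show the lower level of day 12 after 6.7 Gy.

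**Figure D4:**
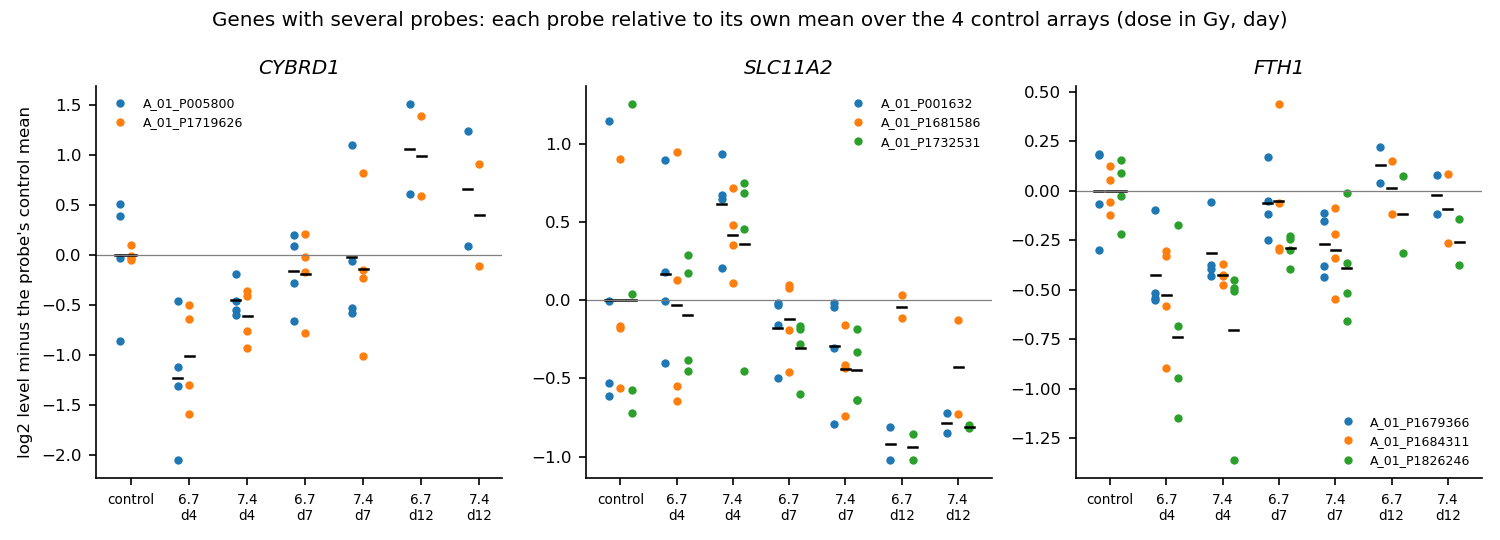
Each probe of the 3 genes with several probes, as log2 level minus the probe's own mean over the 4 controls (y axis), by group (x axis, dose in Gy and day), with points for arrays and lines for group means. The CYBRD1 probes part at 1 control array, SLC11A2 probe A_01_P1681586 stays near its control mean on day 12 after 6.7 Gy (-0.04 log2), and FTH1 is lower on day 4 on all 3 probes, by 0.32 to 0.74 log2.

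The genes of iron export at the basal side of the enterocyte were not called in any comparison. SLC40A1 had control levels of 3.88, 2.81, 3.04 and 3.39, with replicate 1 highest. After 7.4 Gy it was at 3.44, 3.66, 3.79 and 3.90 on day 4 and at 2.87 and 3.09 on day 12. The arrays of these days did not overlap, which held for 12.7% of all probes in this direction, and the change was -0.72 ± 0.27 log2 with a limma adjusted p of 0.137. Against control the changes of SLC40A1 ran from -0.35 log2 (6.7 Gy, day 12) to 0.42 (7.4 Gy, day 4). HEPH had control levels of 0.55, 0.90, 1.40 and 1.13, and its changes against control ran from -0.44 ± 0.23 log2 (7.4 Gy, day 7, adjusted p of 0.373 in limma) to 0.08 ± 0.26 (6.7 Gy, day 4). Every irradiated group overlapped the controls for both genes.

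TFRC, the transferrin receptor, was at 3.62, 2.42, 3.00 and 3.19 in the controls. Its highest group was day 7 after 7.4 Gy, with 3.40, 3.58, 3.86 and 3.54, a change of 0.54 ± 0.25 log2 with an adjusted p of 0.322 in limma. Of these 4 arrays, 1 lay above the highest control and the others lay within the control range. Its lowest group was day 12 after 6.7 Gy, with 2.17 and 2.95, at -0.50 ± 0.36 log2 (adjusted p of 0.819 in limma). The summed level of the 6 crypt and proliferation markers, genes of dividing cells, was 7.64 to 10.1 in the controls and 14.1 to 26.0 on day 7 after 7.4 Gy. It also lay above all controls on day 4 after 6.7 Gy (10.2 to 17.3), on day 7 after 6.7 Gy (11.5 to 20.9) and on day 12 after 7.4 Gy (12.6 to 14.0), where the changes of TFRC were 0.17, 0.28 and 0.18 log2. None of the 6 markers was called against control in these 4 groups, and their part in the level of TFRC was not tested.

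The ferritin chains were not called in any comparison. FTH1 on its highest probe, A_01_P1679366, was at 8.51, 8.99, 8.74 and 8.99 in the controls. On day 4 it was at 8.29, 8.71, 8.25 and 8.26 after 6.7 Gy and at 8.43, 8.75, 8.41 and 8.37 after 7.4 Gy. In each day 4 group 3 arrays lay below all controls and replicate 2 lay among them. The changes were -0.43 ± 0.17 and -0.32 ± 0.16 log2, with limma adjusted p of 0.2 and 0.273. On the other FTH1 probes the day 4 changes were -0.53 ± 0.16 and -0.43 ± 0.12 log2 (A_01_P1684311) and -0.74 ± 0.22 and -0.70 ± 0.22 log2 (A_01_P1826246), with limma adjusted p of 0.0801 to 0.112. On A_01_P1684311 the arrays of day 4 lay below all controls at both doses, as was so for 7.66% and 10.1% of all probes. On day 12 FTH1 was back at 9.03 and 8.84 after 6.7 Gy and 8.89 and 8.69 after 7.4 Gy, within or just above the control range.

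FTL had the narrowest control range of the 8 genes, 6.02, 6.12, 6.10 and 6.03. On day 4 FTL stood at 5.58, 5.88, 5.93 and 5.37 after 6.7 Gy, and at 5.81, 5.99, 5.80 and 5.85 after 7.4 Gy. On day 7 they ran from 5.70 to 5.89 and from 5.60 to 5.84. All arrays of these groups lay below the lowest control, as did both arrays of day 12 after 7.4 Gy, at 5.34 and 5.90. The exception was day 12 after 6.7 Gy, where the arrays stood at 6.31 and 5.61, on either side of the control range. The changes were small, from -0.45 ± 0.20 to -0.11 ± 0.22 log2 over the 6 groups, and the limma adjusted p ran from 0.209 to 0.937. On day 4, 7.66% of all probes after 6.7 Gy and 10.1% after 7.4 Gy lay below all controls. On day 7, 3.16% of all probes after 6.7 Gy and 5.38% after 7.4 Gy lay below the controls in the same way, and on day 12 after 7.4 Gy 9.5% did.

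The doses were compared on each day in 1 model of the 7 groups, with 0 of 8 genes called in each, against 0% of all probes. At an unadjusted p under 0.05 in limma 2.38%, 6.08% and 4.92% of all probes passed on days 4, 7 and 12, and 0 of 8 iron genes on any of them. CYBRD1 on day 4 was 0.78 ± 0.39 log2 higher after 7.4 Gy (interval of -0.03 to 1.60), a description only, since the 6.7 Gy arrays are the low side of the difference known beforehand. TFRC on day 12 was 0.68 ± 0.37 log2 higher after 7.4 Gy, with a 95% confidence interval of -0.09 to 1.45 and 2 arrays a group. Over the settings this difference ran from 0.23 to 1.13 log2. The doses shared no slide and no scan day on day 12, so dose cannot be told apart from these. For HMOX1 the difference on day 4 was -0.13 log2 with an interval of -0.70 to 0.43, and on day 7 it was -0.53 with an interval of -1.10 to 0.03.

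Over the 24 arrays the pairs that varied most alike were SLC11A2 with SLC40A1 (Pearson r of 0.76, Spearman rho of 0.78) and FTH1 with HMOX1 (0.69 and 0.76). CYBRD1 and SLC11A2 varied oppositely (r of -0.64, rho of -0.71). After the group means were taken off, r was 0.63, 0.38 and -0.47 for these pairs. Control replicate 1 was the highest control on SLC11A2 and SLC40A1 and the lowest on CYBRD1, so it weighs on both pairs with SLC11A2. Values of r without this array were not computed. All these r are descriptions over arrays that share slides and the same scaling. Outside the list, the symbols most like HMOX1 among 7338 were NR2F6 (r of 0.82), LIN7B (0.81) and NAGS (0.80). Those most like CYBRD1 were ESRRG (0.79), C6H5orf63 (0.78) and PRKAB2 (0.77), and those most like SLC11A2 were MAPK11 (0.79), CSNK1E (0.78) and CDYL (0.77).

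Of the other genes of iron handling, those that carry, sense and scavenge iron were taken from lists that were likewise written with earlier results known. Among the transferrin cycle, ferrireductases and other carriers 3 of 10 genes were tested, and 1 was called higher on day 4 after each dose, against 1.25% of all probes called higher after 6.7 Gy and 1.71% after 7.4 Gy. It was STEAP1, a member of the STEAP family, whose levels rose from -4.19 to -3.50 in the controls to -3.01 to -0.68 and -2.17 to -1.12. The changes were 1.96 ± 0.44 and 2.07 ± 0.26 log2, with limma adjusted p of 0.0476 and 0.00788. STEAP1 was dim, well above background on 3 of 4 arrays in each of these groups. By day 7 it was near the controls after 6.7 Gy, at a change of -0.12 log2.

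Among the iron and heme scavengers 5 of 7 genes were tested. Of all probes, 1.25% were called higher on day 4 after 6.7 Gy and 1.71% after 7.4 Gy. CP (ceruloplasmin), the plasma ferroxidase related to HEPH, was called higher on day 4 after both doses, at 1.99 ± 0.40 and 1.87 ± 0.37 log2 (adjusted p of 0.0335 and 0.0284 in limma). It was dim too, at -4.80 to -2.70 in the controls and well above background on 3 of the 4. LRP1, the receptor that clears the heme-hemopexin complex, was called higher after 6.7 Gy, at 1.13 ± 0.22 log2 (adjusted p of 0.0324 in limma). After 7.4 Gy its change of 1.00 ± 0.19 log2 (0.026) fell just short of 2-fold. On days 7 and 12 no gene of either list was called against control.

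Of the 7 genes tested for iron handling in the cytosol and mitochondria, SLC25A37 (mitoferrin), which brings iron into mitochondria for heme synthesis, was called lower on day 4 after 7.4 Gy, at -1.02 ± 0.15 log2 (adjusted p of 0.0112 in limma). Of all probes, 0.887% were called lower in that comparison. After 6.7 Gy SLC25A37 was at -0.93 ± 0.19 log2 with a limma adjusted p of 0.0348, below 2-fold. The median of the 7 on day 4 was -0.63 log2 after 6.7 Gy and -0.40 after 7.4 Gy, beside -0.06 and -0.08 over all probes. The erythroid marker HBB, a globin gene that uses the same heme, had levels of 1.54 to 3.78 in the controls and of -5.52 to -3.66 and -4.74 to -2.09 on day 4. On day 4 after 7.4 Gy HBB was well above background on 1 of 4 arrays. Summed over the 3 erythroid markers tested, the level was 149 to 258 in the controls against 111 to 174 and 102 to 149 on day 4. After 6.7 Gy this sum overlapped the controls, and HBB made up little of it. The drop of HBB therefore does not stand for the 3 markers. Whether blood in the tissue bears on SLC25A37 was not tested.

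Of the 9 iron sensors and hepcidin pathway genes and the 14 heme genes tested, 0 were called against control in any of the 6 groups. ACO1, the iron-responsive protein that binds the ferritin and transferrin receptor messages, came nearest. It was at 4.14 to 4.49 in the controls, 3.18 to 3.59 on day 4 after 6.7 Gy and 3.22 to 3.64 after 7.4 Gy. Neither group overlapped the controls, as was so for 7.66% and 10.1% of all probes in this direction. The changes were -0.93 ± 0.15 and -0.78 ± 0.15 log2, with limma adjusted p of 0.0165 and 0.0262, short of 2-fold. HFE, a partner of the transferrin receptor, was at 0.56 ± 0.15 log2 on day 7 after 6.7 Gy (limma adjusted p of 0.208). The biliverdin reductases, which act on the product of HMOX1, had opposite signs on day 4 after 7.4 Gy, with BLVRA at 0.88 ± 0.14 log2 (adjusted p of 0.0155 in limma) and BLVRB at -0.89 ± 0.19 (0.0377), both under 2-fold.

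HMOX1 is a known target of the transcription factor NRF2, so the other NRF2 targets were read beside it. Of 7 tested, 0 were called against control on any day, and all 7 had changes below 0 on day 4 at both doses, with medians of -0.32 and -0.30 log2 beside -0.06 and -0.08 over all probes. NQO1, a quinone reductase, was at 0.71 to 2.15 in the controls, 0.42 to 1.36 and -0.01 to 0.77 on day 4, and 2.42 to 3.05 on day 7 after 6.7 Gy. Its change was -1.14 ± 0.31 log2 on day 4 after 7.4 Gy (adjusted p of 0.0702 in limma) and 1.08 ± 0.31 on day 7 after 6.7 Gy (0.237). Between these days NQO1 was called higher, by 1.81 ± 0.28 log2 after 6.7 Gy and 1.55 ± 0.28 after 7.4 Gy (adjusted p of 0.00242 and 0.00526 in limma), whereas HMOX1 changed by 0.46 ± 0.27 and 0.06 ± 0.27 log2 and was not called. The difference between these genes was not tested. PGD, an enzyme of the pentose phosphate pathway, was at -0.91 ± 0.19 log2 on day 12 after 7.4 Gy (limma adjusted p of 0.387).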

How the data were processed

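Jejunum RNA of 24 animals was labelled with Cy3 and hybridized to single-color Agilent Rhesus Macaque (V2) 4 x 44K arrays. Per the file headers, the authors took 1 intensity per spot from Feature Extraction 11.0.1.1, the Agilent scanner software. It removes background and flags spots well above it. The authors also deposited log2 values from GeneSpring, scaled to the 75th percentile of the array and centred on each probe's median. Of these, 99.9% lay within 0.01 log2 of the scanner values treated in the same way. Gene symbols came from that table.

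Without control spots, and with repeat spots averaged, there were 43603 probes. Log2 of the processed signal minus the array's 75th percentile was fitted in limma 3.58.1 (R 4.3.3, lmFit and eBayes). Each irradiated group was compared with control on the arrays of both groups alone, and doses and days in 1 model of the 7 groups. The Benjamini-Hochberg adjustment ran over 28171 probes, those that some group had well above background on each of its arrays. Calls needed an adjusted p under 0.05 and 2-fold. The fits were first tested on simulated data. Replicates were separate animals.

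The genes, lists and tests were chosen with earlier results of these data known. Named from each further iron list were the genes called against control, at most 6, or else the 2 with the smallest p. For each called member the 3 symbols of highest r over 24 arrays were named, among symbols with probes well above background on all arrays. Alternatives were normexp on the median signal and median background (offset 50), other scalings, no filter on dim probes, the authors' log2 table, trend and robust fits, the methods' t-test, blocks of slide, scan day, position and replicate number, any probe of a gene, and leaving out arrays. No genome coordinates or sequences were used.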

Additional observations from a re-analysis of the deposited data

Results flagged for a closer look

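Among 40 groups of 4 arrays searched over the 8 iron genes, 5 held an array whose gap to the others was large for the range of its group, where chance gives about 1 in 20. The 8 genes share the same arrays, so the groups are not independent and this count cannot show an excess. HMOX1 was outlying in control replicate 2, at a level of 3.95, the lowest control. It was also outlying in replicate 2 of day 4 after 7.4 Gy, at 3.51, the highest of its group. FTH1 stood high in replicate 2 of day 4 after 6.7 Gy, at 8.71, and in replicate 2 of day 4 after 7.4 Gy, at 8.75. TFRC was low in replicate 1 of day 7 after 6.7 Gy, at 3.01.

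The days differed in 2 cases. CYBRD1 was higher on day 12 than on day 4 after 6.7 Gy, by 2.30 log2, which was known when the list was drawn up. SLC11A2 differed by -1.40 log2 between the same days after 7.4 Gy. In neither case can day be told apart from position on the slide.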

How the results depend on the processing

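No change of a member that was called turned its sign under any alternative, but each call was lost under some. On day 4 after 6.7 Gy the number of iron genes called, 1 as reported, was 2 with slide as a fixed block, slide as a random block or scan day as a block. It was 0 with no filter on dim probes, with the methods' t-test, with position as a block and without the arrays of slide 5, the last chosen after seeing the data. On day 4 after 7.4 Gy it went from 1 to 0 with no filter and with position as a block. On day 7 after 7.4 Gy it went from 0 to 1 with normexp, 1 model of all arrays, trend and robust fits or slide as a random block. Between day 7 and day 4 after 6.7 Gy it went from 0 to 1 without slide 5. Between day 12 and day 4 it went from 1 to 0 at both doses with no filter, the methods' t-test and only the arrays compared, and after 7.4 Gy also with normexp, slide as a fixed block, scan day as a block and without slide 5. Leaving out 1 array at a time gave 0 to 1 iron genes in each of these comparisons on day 4 after 6.7 Gy, day 7 after 7.4 Gy and day 12 against day 4 at both doses. The call between day 12 and day 4 after 6.7 Gy is CYBRD1, known when the list was made, so its counts are given only for completeness. The cause of these losses was not tested.

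The replicate block took the iron genes called from 1 to 0 on day 4 at both doses and between day 12 and day 4 at both doses. The replicate numbers did not pair the samples, since deviations of same-numbered arrays correlated at a median of 0.02 (range -0.17 to 0.33 over 62 pairs). Position as a block could not be fitted for 8 comparisons, those of days 7 and 12 with control and those between days. The calls over all probes on day 4 were 559 and 733 as reported, 101 and 97 with no filter, 155 and 301 with the methods' t-test, 178 and 17 with position as a block, and 93 and 129 with the replicate block. The low share of probes above background on slide 5, down to 39.4%, limits dim probes such as that of SLC11A2 at -2.80.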
